A study of Mus musculus with 2 samples.

Results

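The 7 genes described here encode transcription factors with a POU domain: the 4 members of class III (Pou3f1, Pou3f2, Pou3f3 and Pou3f4), the class II genes Pou2f1 and Pou2f2, and the class VI gene Pou6f1. They were chosen by symbol, and all 7 were found among the 23257 known genes of the deposited table. The samples were 2 RNA-Seq libraries of 1 group, neural stem cells (NSCs) from the cerebral cortex of E14.5 CD-1 mice, bought as a primary culture and grown as monolayers with the mitogens EGF and FGF, each at 20 ng/ml. No second cell type or treatment was analysed here, so each value below is a level in NSCs and no test between conditions was made. Levels are in FPKM, fragments per kilobase of transcript and 1000000 mapped fragments, and the lowest value in the files is 0.1. The study calls its replicates biological but does not say whether they were separate cultures, so the spread between them may in part be technical.

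A POU factor binds DNA with a POU-specific domain and a POU homeodomain joined by a flexible linker, and the classic site is the octamer ATGCAAAT. Class III factors act in the developing nervous system, where they often bind next to SOX factors, as on the neural enhancer of Nes. Pou3f2 (Brn2) and Pou3f3 (Brn1) overlap in function in cortical progenitors and in upper layer neurons. Pou2f1 (Oct-1) is made in most cells, whereas Pou2f2 (Oct-2) is best known from B cells.

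The start windows read for Pou3f2, Pou3f3 and Pou3f4 held a short motif, CCAAT, that the windows read for Pou2f1, Pou2f2 and Pou6f1 lacked. The sequences are printed for that reason. Of all start windows read in the same way, 33.8% held CCAAT, so most windows lacked it. RefSeq start windows on GRCm38.p6, the assembly behind mm10, were given for 6 members (not Pou3f1), of which Pou2f1 had 3, and only the 250 bases before each start were read. The sequences run 5′ to 3′ on the strand of the gene, and capitals mark CCAAT on either strand (read as ATTGG on the opposite one). In Pou6f1 the capitals mark TTTGCAT, the opposite strand of ATGCAAA. The windows are chr1:42695518-42695767 (plus strand) for Pou3f3, chrX:110814129-110814378 (plus strand) for Pou3f4, chr4:22488367-22488616 (minus strand) for Pou3f2 and chr15:100599985-100600234 (minus strand) for Pou6f1.
Pou3f3: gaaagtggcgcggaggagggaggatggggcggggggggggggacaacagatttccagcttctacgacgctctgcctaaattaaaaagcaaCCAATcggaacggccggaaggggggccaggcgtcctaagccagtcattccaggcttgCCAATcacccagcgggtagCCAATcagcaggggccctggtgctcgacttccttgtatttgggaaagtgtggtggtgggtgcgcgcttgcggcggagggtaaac
Pou3f4: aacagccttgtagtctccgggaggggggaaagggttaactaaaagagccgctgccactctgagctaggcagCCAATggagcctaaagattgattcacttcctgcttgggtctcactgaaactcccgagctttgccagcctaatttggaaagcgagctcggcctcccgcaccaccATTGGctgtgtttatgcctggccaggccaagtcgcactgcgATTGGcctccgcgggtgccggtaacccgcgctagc
Pou3f2: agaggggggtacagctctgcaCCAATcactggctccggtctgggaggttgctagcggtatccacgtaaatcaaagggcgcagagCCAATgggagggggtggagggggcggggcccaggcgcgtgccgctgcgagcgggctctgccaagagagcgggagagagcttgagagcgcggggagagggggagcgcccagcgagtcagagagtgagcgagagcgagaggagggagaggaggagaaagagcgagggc
Pou6f1: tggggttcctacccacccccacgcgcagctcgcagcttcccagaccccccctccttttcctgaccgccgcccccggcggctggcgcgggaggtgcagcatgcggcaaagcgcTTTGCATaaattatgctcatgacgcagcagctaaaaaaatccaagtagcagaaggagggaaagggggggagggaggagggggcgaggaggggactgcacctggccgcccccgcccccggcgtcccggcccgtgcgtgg

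CCAAT occurred 3 times in the window of Pou3f3, 3 times in that of Pou3f4 and 2 times in that of Pou3f2. The GENCODE M21 transcript of Pou3f4 begins within its window, and 1 of its 3 copies lies before that start, whereas all copies of Pou3f3 and Pou3f2 lie before theirs. CCAAT was not found in the window of Pou6f1, in that of Pou2f2 or in any of the 3 windows of Pou2f1. The Pou2f2 window (chr7:25132461-25132710) lies within the gene, whose outermost GENCODE M21 start is 25179726 (minus strand). The bases before that start were not read. Also within their gene lie 2 of the 3 Pou2f1 windows, so the start sites compared are not alike. Over all 32851 start windows of the same length, 33.8% held CCAAT on either strand, 10.1% held 2 or more copies and 2.79% held 3 or more. The printed windows held 58 to 68% G or C, against a median of 52.4% over all windows, and these shares were not matched for that. The full octamer ATGCAAAT, on either strand, was in no window of the members and in 1.60% of all windows. Its first 7 letters, ATGCAAA, which lie within the octamer, were in the window of Pou6f1 alone and in 4.12% of all windows. The GC box letters GGGCGG, on either strand, were in the windows of Pou3f3, Pou3f2, Pou6f1 and Pou2f2, in 1 of the 3 of Pou2f1, and in 32.7% of all windows. The TATA box letters TATAAA, on either strand, were in another window of Pou2f1, in no window of the other members, and in 12.4% of all windows. CCAAT was thus among several motifs searched. These letter matches are not measured binding sites.

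**Figure D1:**
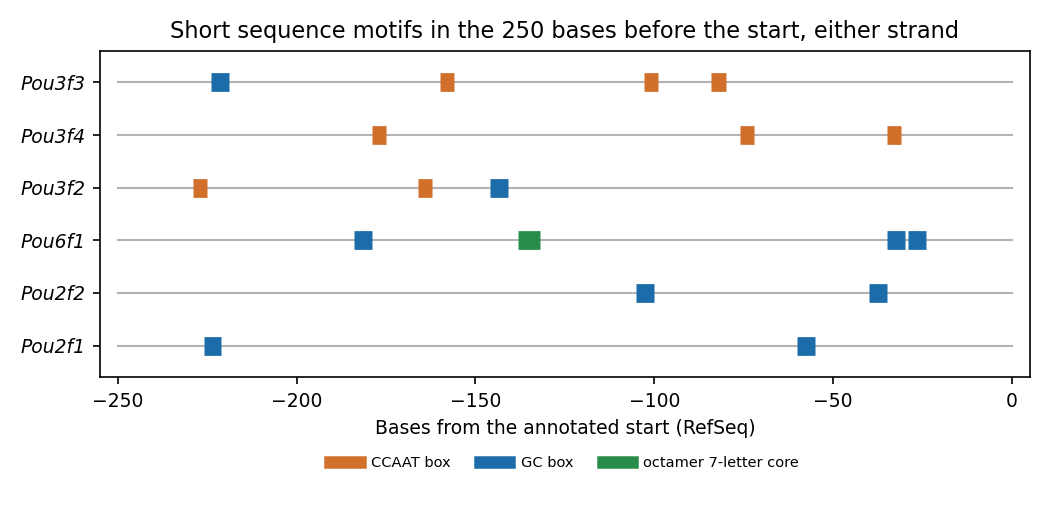
Positions of the motifs in the 250 bases before the RefSeq start of 6 members, in bases from the start (for Pou2f1 the window with 2 GC boxes is drawn, its other 2 windows hold none of the motifs drawn). Orange blocks are CCAAT, blue blocks the GC box and the green block the 7-letter part of the octamer, on either strand; orange blocks appear in Pou3f3 (3), Pou3f4 (3) and Pou3f2 (2) and in none of the other genes.

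Of the 7 members, 6 were above FPKM 1 in both libraries, against 47.7% of all known genes, and all 4 class III genes were among them. In such bulk libraries fewer expressing cells and less RNA per cell cannot be told apart. Pou3f3 had FPKM of 53.2 and 39.5 in replicates 1 and 2, with a mean of 46.4 ± 9.66 (SD, n = 2 libraries). This placed it 1398th among the known genes, above 94.0% of them. Pou3f4 (Brn4), a factor of the inner ear and forebrain whose human counterpart is mutated in an X-linked deafness, had 11.3 and 11.2 (11.3 ± 0.0461), above 76.9% of known genes. Pou3f2, which is also needed for neurons of the hypothalamus, had 7.95 and 8.32 (8.13 ± 0.264), above 71.6%. Pou3f1 (Oct-6), which Schwann cells need to begin myelination on time, was the lowest of the class with 1.60 and 1.18 (1.39 ± 0.299), just over FPKM 1 in replicate 2. The class thus spanned a 33.3-fold range, from Pou3f1 to Pou3f3, and this fold was 33.2 in replicate 1 and 33.5 in replicate 2. Both of these genes were higher in replicate 1, so their fold stayed alike. Other folds in the class differed more. Pou3f3 over Pou3f2 was 6.70-fold in replicate 1 and 4.75-fold in replicate 2, and Pou3f2 over Pou3f1 4.95-fold and 7.05-fold.

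Pou6f1 (Brn-5), a factor of the brain that is divergent from the other classes, had 9.98 and 9.67 (9.82 ± 0.223), above 74.6% of known genes. Pou2f1 had 3.35 and 3.43 (3.39 ± 0.0585), above 60.4%. Pou2f2 had 0.152 and 0.132 (0.142 ± 0.0146), little above the lowest value of the files, and Pou2f1 was 23.9-fold higher. Over the longest coding transcript of Pou2f2 in GENCODE M21, 7.10 kb, those values would be 1.08 and 0.934 fragments in 1000000 mapped. For Pou3f1, over 3.85 kb, the same product was 6.17 and 4.54.

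**Figure D2:**
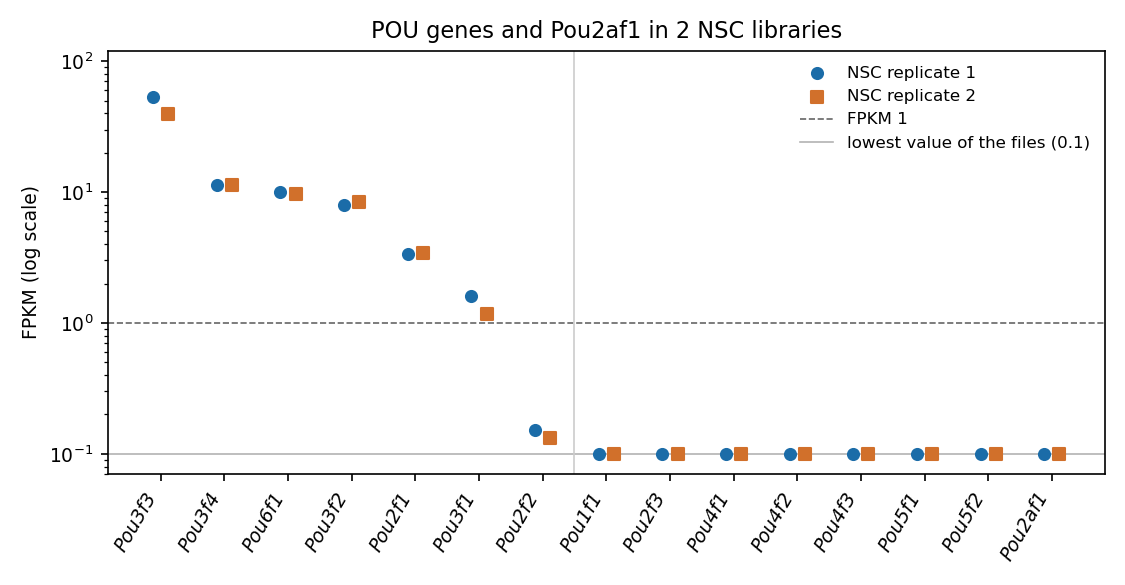
FPKM (log axis) of the 7 members, left of the vertical line, and of 7 other POU genes and the coactivator gene Pou2af1, right of it, with a point for each library. The members run from 46.4 for Pou3f3 down to 0.142 for Pou2f2 on the mean of the libraries, and all 8 genes on the right lie at 0.1 in both.

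Other POU genes were at the bottom of the files. The 7 analysed, namely Pou1f1 of the pituitary, Pou2f3 of skin and tuft cells, Pou4f1, Pou4f2 and Pou4f3 of sensory neurons, Pou5f1 (Oct4) of pluripotent cells, and Pou5f2, were listed at 0.1 in both libraries, a value shared by 40.3% of all known genes. Of the summed FPKM of these 14 POU genes, members included, class III made up 83.9% in replicate 1 and 81.2% in replicate 2. Pou3f3 by itself made up 60.3% and 53.3%. Without Pou3f3 the class summed to 20.8 FPKM in replicate 1 and 20.7 in replicate 2.

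In the order of mean level, Pou3f3, Pou3f4, Pou6f1, Pou3f2, Pou2f1, Pou3f1 and Pou2f2, the 2-library ranges of no neighbouring pair overlapped (6 of 6 pairs apart). With 2 values a gene the smallest two-sided p of an exact permutation test is 0.333, so the steps were set beside the spread of other genes instead, given as the SD of the log2 library ratio, on log2(FPKM + 0.1), among the 200 known genes nearest in mean. For each step the larger SD of its 2 genes was used, and it measures library ratios, not differences between genes. Pou3f3 lay 4.12-fold above Pou3f4, 4.72-fold in replicate 1 and 3.52-fold in replicate 2. The log2 difference of the mean levels was 2.04 beside an SD of 0.13, while the log2 library ratio of Pou3f3 itself was 0.43. Pou3f4, Pou6f1 and Pou3f2 were much closer to each other. Pou3f4 was 1.15-fold above Pou6f1 and Pou6f1 1.21-fold above Pou3f2, steps of 1.54 and 2.16 SD. Pou3f2 was 2.40-fold above Pou2f1, and Pou2f1 2.44-fold above Pou3f1. Pou3f1 was 9.80-fold above Pou2f2.

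Steps between genes also depend on the transcript length by which fragments were divided. Each class III gene is a single exon in GENCODE M21, but its length differs between annotations: 7409 bases for Pou3f3 against a RefSeq span of 4443 (a ratio of 1.67), 3849 against 3010 for Pou3f1 (1.28), 5587 against 6272 for Pou3f2 (0.891) and 2928 against 4730 for Pou3f4 (0.619). The 3 coding transcripts of Pou6f1 run from 2523 to 4953 bases. These ranges are wider than the steps that place Pou6f1 between Pou3f4 and Pou3f2, so the order of these 3 genes was not resolved here. The 13 coding transcripts of Pou2f1 run from 223 to 13050 bases, and the 9 of Pou2f2 from 609 to 7095. Both ranges exceed the steps next to these genes, so their places in the order were not resolved either. No stretch of 50 bases was shared between the longest transcripts of any 2 members, on either strand, so a fragment with 50 or more bases read without error matches at most 1 of them.

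The libraries differed in Pou3f3 far more than in other genes of its level. Its log2 ratio of replicate 1 over replicate 2 was 0.43, beside an SD of 0.10 among the 200 genes nearest in mean, and 1 of the 200 had a larger ratio in either direction. Pou3f1 also stood toward the edge, with a log2 ratio of 0.41 beside an SD of 0.19 and 8 of 200 genes with a larger one. The other members did not. Of 200 genes nearest in mean, 191 had a larger ratio than Pou3f4 (log2 ratio 0.01), 132 than Pou6f1 (0.05), 105 than Pou3f2 (-0.07), 163 than Pou2f1 (-0.03) and 155 than Pou2f2 (0.12). Known genes summed to 352990 FPKM in replicate 1 and to 367131 FPKM in replicate 2, a log2 ratio of -0.06, so the ratio of Pou3f3 ran against that of the totals.

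**Figure D3:**
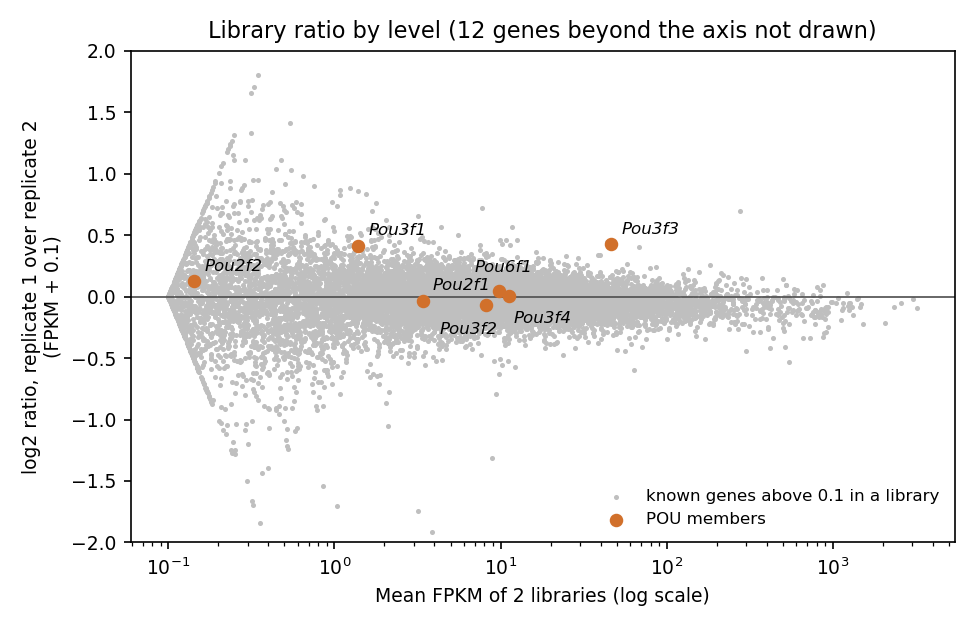
log2 ratio of replicate 1 over replicate 2, on log2(FPKM + 0.1), against mean FPKM (log axis) for 13875 known genes above 0.1 in a library, grey, and the 7 members, orange; 12 genes beyond the axis are not drawn. Pou3f3 (0.43 at a mean of 46.4) lies above nearly all genes of its level, Pou3f1 (0.41) near the upper edge, and the others within the bulk.

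The lncRNA beside Pou3f3 differed between the same libraries in the opposite direction. Pou3f3os (Pantr1, 2610017I09Rik) is read from the opposite strand, and in GENCODE M21 925 bases lie between its start and that of Pou3f3. Pou3f3 lies on the plus strand of chromosome 1 from 42695768 to 42703176 and Pantr1 on the minus strand from 42590782 to 42694842. Pou3f3os had 25.5 FPKM in replicate 1 and 32.1 in replicate 2, a log2 ratio of -0.33, and 2 of the 200 known genes nearest in mean had a larger ratio in either direction. The SD among those 200 genes was 0.59, above the ratio itself, and 0.11 once genes at 0.1 in either library were left out, when 1 of 200 had a larger ratio. Its values were the same in the lncRNA table and, as 2610017I09Rik, in the known gene table. Pou3f3 was 2.09-fold above Pou3f3os in replicate 1 and 1.23-fold in replicate 2. The sum of both was 78.7 and 71.7, a log2 ratio of 0.13. A ratio of sums must lie between those of its parts, so this value is no test of a link between the genes. FPKM of transcripts of unlike length also do not add up to fragments. The libraries do not mark strand, and the part of this in the values was not tested. In GENCODE M21 a further gene, AC122898.1, spans Pou3f3 on the same strand, from 42694925 to 42744791. No value was listed for AC122898.1, and its part in the values was not tested either.

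**Figure D4:**
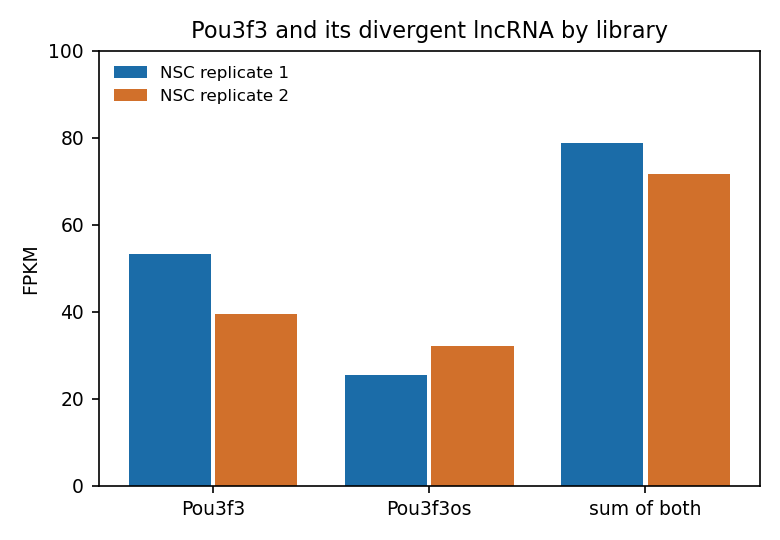
FPKM of Pou3f3, of Pou3f3os and of their sum in NSC replicates 1 and 2 (bars, 1 library each). Pou3f3 is higher in replicate 1 (53.2 against 39.5 in replicate 2) and Pou3f3os higher in replicate 2 (32.1 against 25.5 in replicate 1), while the sums are 78.7 and 71.7.

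Of 20 lncRNAs within 100 kb of a member or carrying its symbol, 16 were at 0.1 in both libraries, as were 92.8% of all 8714 lncRNAs. Among the 16 were Pou3f3os2 (Pantr2) on the far side of Pou3f3 and a lncRNA row named Pou2f1, although the known gene Pou2f1 had 3.39. Also among them were Gm27247, which overlaps Pou3f1 on the opposite strand, and Gm27209, which overlaps Pou6f1 on the opposite strand. Besides Pou3f3os, the exceptions were 9130221H12Rik (4.23 and 3.68), near Pou2f2, C330013E15Rik (0.552 and 0.434), near Pou6f1, and D930028M14Rik (0.176 and 0.121). D930028M14Rik lies within the span of Pou2f2 on the opposite strand, and its level is about as low. Without strand, fragments from bases that both genes cover cannot be told apart.

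The protein-coding neighbours of the class III genes ranged from the lowest value of the files to 39.9 FPKM. Pou3f4, on chromosome X from 110814280 to 110817207, lies 293 kb from Cylc1, a gene of the sperm head, and 1614 kb from Gm6377, and both of these neighbours were at 0.1 in both libraries. Pou3f3 lies 148 kb from the mitochondrial ribosomal protein gene Mrps9, which had 23.3 ± 1.23, and 1839 kb from Tmem182 at 0.1. Pou3f2, on chromosome 4 from 22482780 to 22488366, lies 48.7 kb from the F-box gene Fbxl4 with 6.51 ± 0.191 and 2008 kb from Mms22l, of DNA repair, with 6.53 ± 0.403. Pou3f1, the lowest of its class, lies on the same chromosome from 124656807 to 124660655. It is 17.5 kb from Utp11l, of the small ribosomal subunit processome, with 39.9 ± 1.98, and 720 kb from Rragc with 29.3 ± 1.24. Pou2f1 (chromosome 1 from 165865154 to 166002678) overlaps Cd247 of T cells, which was at 0.1, as was Dusp27, 95.5 kb away. Pou2f2 (chromosome 7 from 25087344 to 25179726) has Zfp574 at 5.90 ± 0.386 on one side and Dedd2 at 1.39 ± 0.121 on the other. Pou6f1 (chromosome 15 from 100575318 to 100599984) lies between Tfcp2 with 5.41 ± 0.283 and Dazap2 with 104 ± 7.84.

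The 11 SOX genes listed were chosen as possible partners of class III factors, and binding was not measured here. All 11 passed FPKM 1 (47.7% of all known genes) and 9 of them FPKM 10, which 24.5% of all known genes passed in both libraries. Their median was 20.9, against 0.695 over all known genes. The highest were Sox2, the partner of POU factors on neural enhancers, with 148 and 139, Sox4 with 79.5 and 76.3 and Sox8 with 54.4 and 54.2, and the lowest was Sox10, of oligodendrocytes and neural crest, with 1.60 and 2.12. Sox2 was therefore above Pou3f3 in both libraries. Sox3 had 51.1 ± 4.95, close to Pou3f3, and Sox11 20.9 ± 1.67.

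Of 8 progenitor genes, 7 passed FPKM 10 (24.5% of all known genes), and the median was 23.1. Fabp7, a radial glia gene that class III factors can activate, was the highest with 1900 and 2211, followed by Nes with 60.7 and 55.1 and by Hes5, a target of Notch signalling, with 29.0 and 31.1. Dll1, a Notch ligand gene, had 20.1 and 20.0. The lowest was Myt1l, of neurons, at 0.1 in both libraries. The label of the cells was checked with 5 neural stem cell markers (Nes, Sox2, Vim, Fabp7 and Slc1a3), and all passed FPKM 10. Of the neuron markers Tubb3, Snap25, Syn1 and Stmn2, 3 of 4 were above FPKM 1 (47.7% of all known genes), with Stmn2 at 0.1. The part of neuronal RNA in the POU levels was not tested.

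Genes of cell types known for some members had lower medians than the SOX and progenitor genes. These were 4.30 for upper layer neurons, 2.66 for Schwann cells and 0.1 for B cells and microglia, beside 0.695 over all known genes. Of 6 upper layer neuron genes 4 were above FPKM 1 in both libraries, beside 47.7% of all known genes. The highest were Lmo4 (47.0 ± 1.59), Cux1 (15.9 ± 0.941) and Rorb (6.96 ± 0.0798), and Unc5d was the lowest at 0.413 ± 0.0185. Of 4 genes listed for Schwann cells, 3 were above FPKM 1 (47.7% of all known genes). These were Pmp22 (23.5 ± 1.15), the factor gene Egr2 (3.97 ± 0.379), which acts after Pou3f1 in Schwann cells, and Mbp (1.35 ± 0.189). Prx, the gene of periaxin, was lowest at 0.537 ± 0.00563. Mbp is not particular to Schwann cells, as the study used it as a marker of oligodendrocyte precursor cells. Beside Pou2f2 and its B cell coactivator Pou2af1, which was at 0.1, none of 8 B cell and microglia genes was above FPKM 1. At 0.1 in both libraries were 7 of the 8, Cd79a (0.193 ± 0.0542) being the exception, and 40.3% of all known genes.

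Pou2f1 is known for housekeeping promoters, where it helps the complex SNAPc at small nuclear RNA genes. All 9 genes of a list of SNAPc subunits, Polr3a, Hist1h2bc, Tbp and Gapdh passed FPKM 1, as did 47.7% of all known genes. Their median was 9.33, against 0.695 over all known genes. Gapdh was the highest with 1041 and 1187, followed by Snapc2 with 35.1 and 33.2 and Hist1h2bc, a histone gene, with 15.8 and 16.0, and the lowest was Snapc4, the subunit that contacts Oct-1, with 5.30 and 4.46. Each of the 9 was above Pou2f1 in both libraries.

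Among the 52 genes of these lists and of the marker lists, those nearest to the members in mean level were Lmo4 for Pou3f3 (absolute log2 difference 0.02), Pax6 for Pou3f4 (0.01), Snapc3 for Pou6f1 (0.07), Snapc5 for Pou3f2 (0.08), Egr2 for Pou2f1 (0.23) and Mbp for Pou3f1 (0.04). With 1 condition this is a likeness of level alone, over 2 libraries.

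**Figure D5:**
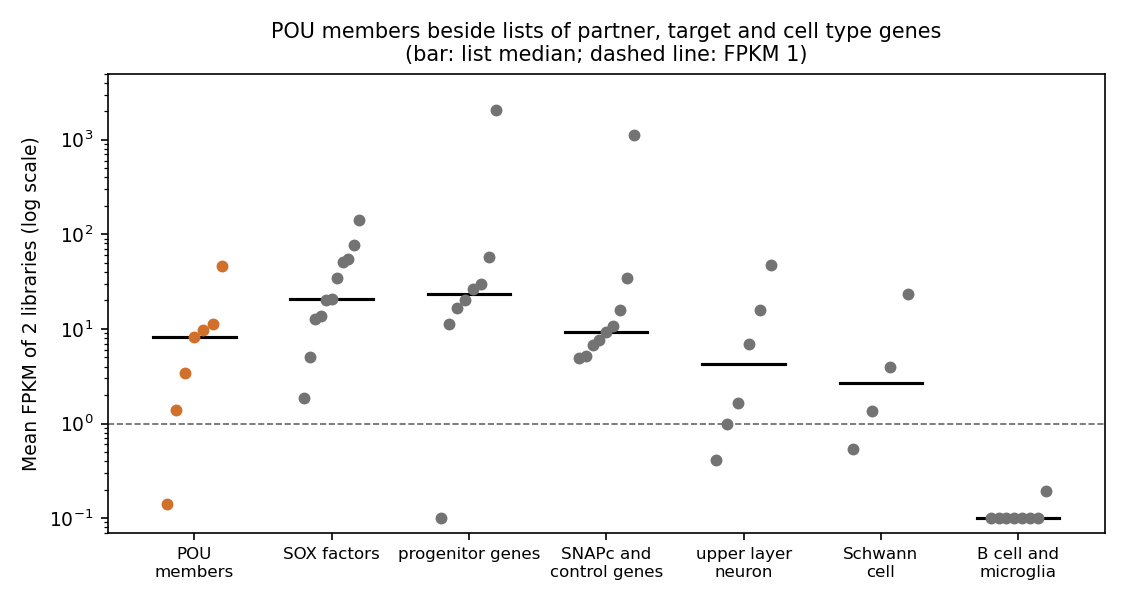
Mean FPKM of the 2 libraries (log axis) for the 7 POU members, orange, and for the genes of 6 lists, grey, with a bar at each median and a dashed line at FPKM 1. The median of the members, 8.13, lies below those of the SOX factors (20.9) and progenitor genes (23.1) and above those of the upper layer neuron (4.30), Schwann cell (2.66) and B cell and microglia genes (0.1).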

How the data were processed

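Poly(A)+ RNA of 2 NSC libraries was made into unstranded paired-end libraries and sequenced. According to the methods and the submitters' processing notes, the authors aligned the pairs to mm10 (TopHat2 2.0.11, Bowtie2 2.2.2) and used Cufflinks 1.3.0, with correction for multi-reads and bias, to make the deposited FPKM of known genes and lncRNAs. By their methods, values under 0.1 were set to 0.1. Since the tables hold no counts, the depth of each library and its counting error are unknown, and 2 libraries limit the precision. The study gives only an average depth over all its samples.

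FPKM were used as deposited, with pandas 2.3.3, NumPy 2.4.6 and matplotlib 3.10.9 under Python 3.11.15. Levels, percentiles (ties split evenly), log2 ratios of the libraries with a pseudocount of 0.1 and counts above FPKM 1 in both libraries were computed. Only some steps were tested on simulated data, namely the percentiles and the spread and rank of library ratios among the genes nearest in mean. Gene places and lengths are those of GENCODE M21 (GRCm38), and start windows are from RefSeq (GRCm38.p6). The members and lists were chosen with earlier results of these data known. Some genes of the lists are not reported here. Named were the POU genes analysed and Pou2af1, the 3 highest and the lowest gene of each list, further list genes that are known partners or targets of members (Sox3, Sox11 and Dll1), cell type markers, the list gene nearest each member in level, the nearest protein-coding neighbours and nearby lncRNAs. In the closing section, thresholds of 0.1 and 5, pseudocounts, scaling, each library left out and a filter on low values were tried.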

Additional observations from a re-analysis of the deposited data

How the results depend on the processing

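No paired analysis was possible because both libraries are of 1 group. Above FPKM 0.1 in both libraries 7 members passed and above FPKM 5 4 did, and with either library left out or with values scaled to a sum of 1000000 the count stayed at 6 of 7. The threshold changed list counts. Above FPKM 5 it left 3 of 6 upper layer neuron genes (4 above FPKM 1) and 1 of 4 Schwann cell genes (3 above FPKM 1). It also left 7 of the 9 genes of the SNAPc list and 10 of the 11 SOX genes. Above FPKM 0.1 it gave 6 upper layer neuron and 4 Schwann cell genes, and 1 of 8 B cell and microglia genes (0 above FPKM 1). Without replicate 2, 5 upper layer neuron genes passed FPKM 1. With either library left out, the class III share of summed POU FPKM was 81.2 to 83.9% (82.7% on the mean), and 83.4% with values at 0.1 set to 0. Scaling kept all 6 neighbouring pairs apart. Among genes with a mean above FPKM 0.1 alone, percentiles were lower by construction, 89.9 for Pou3f3, 61.4 for Pou3f4 and 22.6 for Pou3f1. Chosen after seeing the data, leaving out genes at 0.1 in either library brought the SD of the 200 nearest genes to 0.16 for Pou2f1, against 0.39 with them, and to 0.11 for Pou3f3os (2610017I09Rik), against 0.59, and left that for Pou3f3 at 0.10. A value of 0.1 does not separate a low level from none, as the fragments behind it are unknown.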
